A study of Mus musculus with 20 samples.

Results

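Cyclin-dependent kinase (CDK) inhibitors and G1 cyclins are 10 genes, chosen by symbol, out of 55822 genes in the count table of this series. They are the Cip/Kip inhibitors Cdkn1a, Cdkn1b and Cdkn1c, the INK4 inhibitors Cdkn2a, Cdkn2b, Cdkn2c and Cdkn2d, and the G1 cyclins Ccnd1, Ccnd2 and Ccne1. All 10 symbols were found. The rule uses no measured value, but the genes were picked with earlier results of these data known. RNA was measured by bulk RNA sequencing of poly(A) libraries from whole kidney of male C57BL/6J mice aged 8 weeks, a wild-type strain with no engineered allele named. The 5 control mice received phosphate-buffered saline (PBS), and the 5 puberulic acid mice received 1 mg per day of this tropolone metabolite of Penicillium moulds. Both groups were dosed on 6 days, from day 0 to day 5, left untreated on day 6 and killed on day 7. Which route each animal had is not given: the labels name oral dosing, and also gavage or intraperitoneal injection. They also describe 2 lots of the supplement Choleste-Help, called normal and toxic, at 1000 mg per day, whose 2 sets of columns do not show by name which lot they hold and are not analysed here.

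D cyclins pair with CDK4 and CDK6, and E cyclins pair with CDK2. These kinases phosphorylate the retinoblastoma protein, which releases E2F transcription factors and lets a cell pass from G1 into DNA synthesis. INK4 proteins bind CDK4 and CDK6 alone, while Cip/Kip proteins act on cyclin-bound kinases and are strong inhibitors of CDK2. In kidney, Cdkn1a is a known p53 target that rises after tubular injury, and Cdkn1c is a known marker of mature podocytes.

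Libraries held 18409940 to 24705953 estimated counts. Levels are given as CPM, counts scaled to a common library size that was corrected by the trimmed mean of M-values (TMM). A gene is called at an adjusted p under 0.05 in the quasi-likelihood test of edgeR, with Benjamini-Hochberg adjustment across the 16266 genes tested. TMM factors ran from 0.827 to 0.848 in controls and from 1.17 to 1.26 with puberulic acid. Over all tested genes the median log2 fold change was 0.05 on this scale and 0.56 when libraries were scaled to total counts, so small differences depend on the scaling. The labels number the samples without saying that each is a separate animal. They are called mice here, and p-values measure only the spread between them, which may be technical. Puberulic acid replicate 3 stood apart in its adipose and adrenal transcripts: Adipoq was at 20.3 CPM there and at 0 to 0.570 CPM in the other 9 libraries. In whole tissue, fewer cells of a type and less RNA per cell cannot be told apart.

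Of the 9 members tested, 4 were higher with puberulic acid, 2 were lower and 3 were not called. With total-count scaling 8 were higher and none was lower, and over all genes 9179 were then called higher and 2526 lower. Over all genes tested, 65.3% were called, 34.2% higher and 31.1% lower, so the share of members called is near that of all genes. Among all 10 members, control and treated CPM ranges were separate for 6, of which 5 were higher and 1 was lower. The 5 include Cdkn2a, which had few counts and is not among the genes tested. Among all genes tested, 50.1% had separate ranges, 26.1% higher and 24% lower. Members of 1 family differed in direction: among the Cip/Kip inhibitors, Cdkn1a rose 74.3-fold and Cdkn1c was called lower. Without puberulic acid replicate 3, 4 members were called higher and 1 lower.

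**Figure D1:**
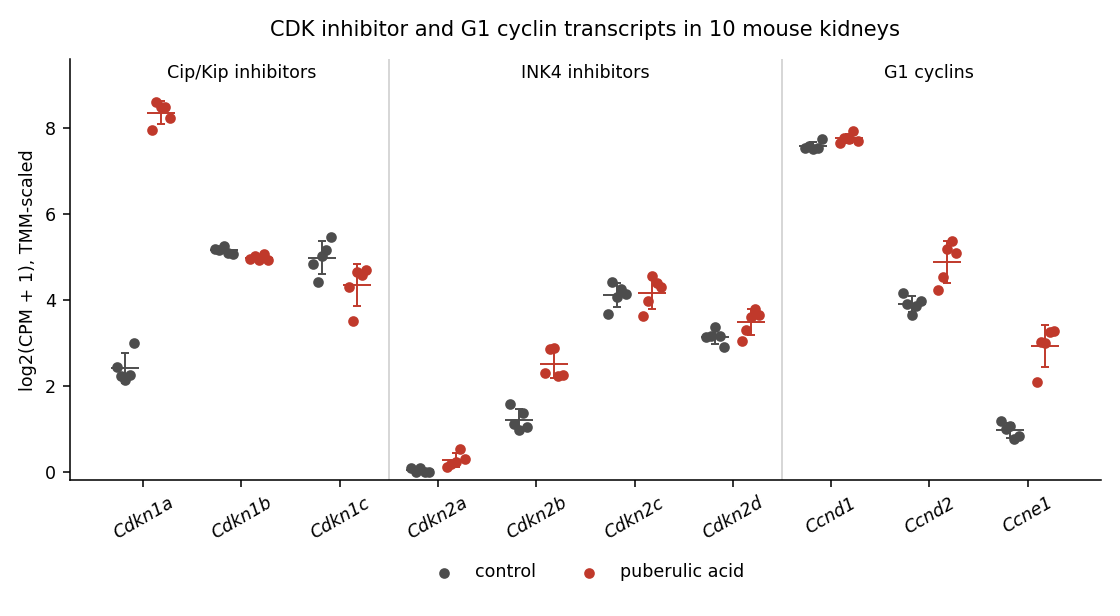
Levels of the 10 members in each of the 10 mice, as log2(CPM + 1) on TMM-scaled libraries. Each point is 1 mouse, in order of replicate within a group, and the lines mark the mean and SD of 5 mice. Cdkn1a moved from the low range of the plot to the top of it, while Cdkn1b, Cdkn1c, Cdkn2c, Cdkn2d, Ccnd1, Ccnd2 and Cdkn2a moved by less than 1 on this scale.

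Cdkn1a (ENSMUSG00000023067, on chromosome 17) encodes p21, a Cip/Kip inhibitor that halts the cycle and that p53 induces. In control replicates 1 to 5 it was at 4.39, 3.69, 3.37, 3.74 and 7.01 CPM. With puberulic acid it was at 246, 384, 359, 359 and 299 CPM. Every treated mouse was far above every control. The level went from 4.44 ± 1.48 to 329.6 ± 56.2 CPM (SD, n = 5 per group), and the log2 fold change was 6.22 ± 0.23 (SE, edgeR adjusted p = 3.36e-09). It was higher and called in every alternative fit. Control replicate 5 was the highest control, and replicate 1 was the lowest treated mouse.

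The RefSeq promoter table (build GRCm38.p6) held 10 windows for 7 of the members. It has no entry for Cdkn1c, Ccnd1 and Ccnd2. Each window covers 250 bases before and 50 after a start site, and the bases before the start are printed here for the members that were called higher and have an entry. The Cdkn1a windows belong to start sites 2790 bases apart. The upstream one, at chr17:29090729-29090978 on the plus strand, holds a p53 response element from 51 to 32 bases before its start. Capitals mark that element and a TATAAG on the minus strand.

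Cdkn1a, upstream start: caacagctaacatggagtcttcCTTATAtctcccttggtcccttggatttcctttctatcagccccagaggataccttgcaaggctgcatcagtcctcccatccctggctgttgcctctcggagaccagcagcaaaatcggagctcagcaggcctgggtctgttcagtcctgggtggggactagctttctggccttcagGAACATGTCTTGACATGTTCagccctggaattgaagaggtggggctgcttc

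The downstream window, at chr17:29093519-29093768 on the plus strand, has capitals on 2 GC boxes (GGGCGG) and on a TATAAG that begins 25 bases before the start.

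Cdkn1a, downstream start: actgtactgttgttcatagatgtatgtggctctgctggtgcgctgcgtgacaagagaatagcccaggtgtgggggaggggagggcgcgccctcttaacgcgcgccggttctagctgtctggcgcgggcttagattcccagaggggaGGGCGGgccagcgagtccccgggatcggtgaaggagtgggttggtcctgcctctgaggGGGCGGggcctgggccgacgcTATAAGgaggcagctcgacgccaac

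The p53 element was searched as a pair of adjoining decamers with intact core letters and at most 1 mismatch outside the core, a definition set after the sequence had been seen. It was present in 18 of 32851 promoter windows, or 0.0548%. It is the 20-base run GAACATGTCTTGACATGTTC, and the windows of the other members held none. Other motifs were searched on both strands. A GC box was found in 8 of the 10 windows, against 35.7% of all windows. TATAAA or TATAAG was found in 2, against 18.8% of all. The AP-1 letters TGANTCA were in none of the 10, against 7.81% of all. These are matches of letters, and no binding was measured. The Cdkn2b window, at chr4:89311033-89311282 on the minus strand, holds a cyclic AMP response element (TGACGTCA, in capitals) from 46 to 39 bases before the start, a motif found in 1.79% of all windows.

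Cdkn2b: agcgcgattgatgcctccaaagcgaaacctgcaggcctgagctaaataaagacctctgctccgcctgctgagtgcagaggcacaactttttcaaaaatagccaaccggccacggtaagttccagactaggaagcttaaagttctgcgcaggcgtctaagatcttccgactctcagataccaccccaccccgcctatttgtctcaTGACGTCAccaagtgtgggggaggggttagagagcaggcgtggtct

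The Ccne1 window, at chr7:38107491-38107740 on the minus strand, has 4 GC boxes in capitals, 1 of them read on the other strand as CCGCCC.

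Ccne1: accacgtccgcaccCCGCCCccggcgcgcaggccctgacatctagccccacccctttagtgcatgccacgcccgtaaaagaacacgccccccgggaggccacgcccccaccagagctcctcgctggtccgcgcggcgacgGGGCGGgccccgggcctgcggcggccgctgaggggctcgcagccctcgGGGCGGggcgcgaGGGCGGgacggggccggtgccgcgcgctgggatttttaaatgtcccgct

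An E2F site, searched as TTTCCCGC, TTTGGCGC, TTTGCCGC or TTTCGCGC, was found in 1 of the 10 windows, that of an upstream Cdkn2a start at chr4:89294570-89294869 on the minus strand, where it lies 99 to 92 bases before the start. Over all windows 2.26% held one. No match to these letters was found in the windows of the other members that have one.

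Cdkn1b (ENSMUSG00000003031, chromosome 6) encodes p27, the Cip/Kip inhibitor of resting cells, whose protein is controlled largely by degradation. Control mice had 35.6, 35.0, 37.2, 33.0 and 32.5 CPM, and puberulic acid mice had 29.7, 31.2, 29.4, 32.4 and 29.3 CPM. The ranges were narrow and just failed to touch. The level fell by 0.19 on the log2 scale (SE 0.07, edgeR adjusted p = 0.0365), from 34.6 ± 1.91 to 30.4 ± 1.35 CPM (SD, n = 5 per group), but with total-count scaling it was 0.32 higher (adjusted p = 0.0018). With upper-quartile scaling the log2 fold change was -0.09 (adjusted p = 0.281), and without control replicate 2, control replicate 3 or puberulic acid replicate 3 the call was lost (adjusted p = 0.0554, 0.0749 and 0.0698). Beside Rb1, counted in the same libraries and therefore free of scaling, the log2 ratio of Cdkn1b counts changed by -0.06 (exact two-sided permutation p = 0.556, n = 5 per group).

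Cdkn1c (ENSMUSG00000037664, chromosome 7) encodes p57, an imprinted Cip/Kip inhibitor of differentiated cells. Controls had 27.6, 20.5, 31.6, 34.5 and 42.9 CPM. Puberulic acid mice had 18.5, 10.4, 24.1, 22.9 and 24.8 CPM. The ranges overlapped, and 2 treated mice lay below all controls. The level fell by 0.64 on the log2 scale (SE 0.24, edgeR adjusted p = 0.0342), from 31.4 ± 8.29 to 20.1 ± 5.99 CPM (SD, n = 5 per group). The call was lost without control replicate 3, 4 or 5 (adjusted p = 0.0537, 0.0628 and 0.0850) or puberulic acid replicate 1 (adjusted p = 0.05003), and with total-count scaling the log2 fold change was -0.13 (adjusted p = 0.659).

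Cdkn1c was compared with podocyte transcripts mouse by mouse, and no correlation was computed. Nphs1, which encodes nephrin of the filtration slit, was at 18.7, 23.3, 33.0, 32.7 and 56.0 CPM in controls and at 18.9, 5.41, 13.2, 17.2 and 26.4 CPM with puberulic acid. Control replicate 5 was the highest and puberulic acid replicate 2 the lowest of all 10 mice both for Cdkn1c and for Nphs1. The summed endothelium markers had the same extremes, at 465 and 160.0 CPM. The lowest control was replicate 2 for Cdkn1c and replicate 1 for Nphs1. Of the 8 podocyte markers, 1, Nphs1, was called lower and none higher, with a median log2 fold change of -0.02. With total counts 3 were called higher and none lower, and Nphs1 was at -0.49 (edgeR adjusted p = 0.267). The summed level of the 8 markers was 259 to 545 CPM in controls and 139.9 to 504 CPM with puberulic acid. The part of podocyte or endothelial RNA in the Cdkn1c difference was not tested.

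**Figure D2:**
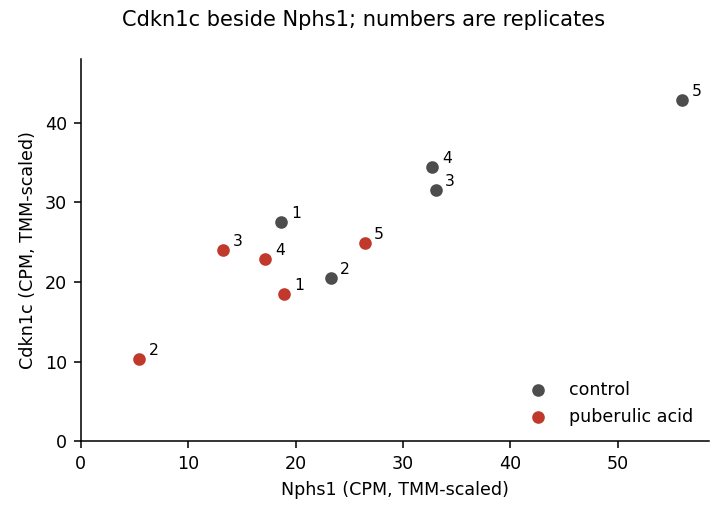
Cdkn1c level against the Nphs1 level in the same libraries, both in TMM-scaled CPM. Each point is 1 of 10 mice with its replicate number, and control replicate 5 and puberulic acid replicate 2 mark the ends of the plot.

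Among the INK4 inhibitors, Cdkn2b (ENSMUSG00000073802, chromosome 4), which encodes p15 and is known as a target of transforming growth factor beta, was at 2.00, 1.16, 0.955, 1.56 and 1.04 CPM in controls. With puberulic acid it was at 3.93, 6.18, 6.40, 3.67 and 3.76 CPM. All treated mice were above all controls. It rose from 1.34 ± 0.43 to 4.79 ± 1.37 CPM (SD, n = 5 per group), and the log2 fold change was 1.83 ± 0.27 (SE, edgeR adjusted p = 9.47e-05). It was higher and called in every alternative fit.

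Cdkn2a (ENSMUSG00000044303, chromosome 4) encodes both p16, an INK4 inhibitor used as a senescence marker, and p19Arf, which acts through Mdm2 and p53. The transcripts share exons, so gene counts cannot tell them apart. It had 1, 0, 1, 0 and 0 counts in controls and 2, 3, 4, 11 and 7 counts with puberulic acid. It was near the limit of detection in both groups, yet every treated mouse had more than every control. The summed counts of 2 and 27 gave a ratio of 8.71 after scaling (95% exact interval 2.19 to 75.6, which covers counting error only). A floor of 3 counts per library corresponds to 0.158 to 0.195 CPM in controls, which no control reached, and to 0.0964 to 0.128 CPM with puberulic acid. The filter on low counts removed this gene, and the exact two-sided permutation test on log2(CPM + 1) gave p = 0.00794, the smallest that 5 mice against 5 allow, for a difference of 0.23. 

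Cdkn2c (ENSMUSG00000028551, chromosome 4), which encodes p18, was at 11.8, 20.2, 15.7, 18.01 and 16.5 CPM in controls and at 11.2, 14.6, 22.4, 20.05 and 18.7 CPM with puberulic acid. The groups lay over each other. Its log2 fold change was 0.08 ± 0.19 (SE, 95% interval -0.34 to 0.50, edgeR adjusted p = 0.728), and its sign turned when control replicate 1 or puberulic acid replicate 3 or 4 was left out. Cdkn2d (ENSMUSG00000096472, chromosome 9), which encodes the p19 of the INK4 family, was at 7.76, 7.86, 9.36, 7.98 and 6.49 CPM in controls and at 7.24, 8.82, 11.2, 12.9 and 11.5 CPM with puberulic acid. Of the treated mice, 3 were above all controls. Its log2 fold change of 0.39 ± 0.17 (SE, 95% interval 0.02 to 0.76) missed the threshold (edgeR adjusted p = 0.0635). It passed without puberulic acid replicate 1 (0.47, adjusted p = 0.0147) and with upper-quartile scaling (0.49, adjusted p = 0.0276). With total counts, Cdkn2c was 0.59 higher (adjusted p = 0.0181) and Cdkn2d 0.90 higher (adjusted p = 0.000635), near or somewhat above the 0.56 of the median gene.

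Ccnd1 (ENSMUSG00000070348, chromosome 7) encodes cyclin D1, which couples growth signals to CDK4 and CDK6. It was at 183, 190.4, 179.5, 185 and 212 CPM in controls and at 200.2, 217, 213, 241 and 207 CPM with puberulic acid. The ranges overlapped only through control replicate 5. The log2 fold change of 0.18 ± 0.08 (SE, 95% interval 0.01 to 0.36) missed the threshold (edgeR adjusted p = 0.0644) and was past it without control replicate 5 (0.21, adjusted p = 0.0354). With total counts it was 0.69 (adjusted p = 8.63e-06).

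Ccnd2 (ENSMUSG00000000184, chromosome 6) encodes cyclin D2. It was at 16.9, 13.9, 11.6, 13.5 and 14.7 CPM in controls and at 17.7, 21.9, 35.1, 40.3 and 32.9 CPM with puberulic acid. All treated mice were above all controls, replicate 1 by little. The level rose from 14.1 ± 1.95 to 29.6 ± 9.44 CPM (SD, n = 5 per group), and the log2 fold change was 1.07 ± 0.21 (SE, edgeR adjusted p = 0.000752). Replicates 1 and 2 were the lowest treated mice for Ccnd2 and also for fibroblast and pericyte markers, whose summed level was 498, 683, 1368, 1382 and 1837 CPM in puberulic acid replicates 1 to 5, against 115 to 181 CPM in controls. Of these 7 markers 6 were called higher. Replicates 1 and 2 were also lowest for macrophage and monocyte markers, whose summed level was 183, 350.4, 553, 608 and 489.8 CPM in puberulic acid replicates 1 to 5 and 87.0 to 193 CPM in controls. The part of both marker lists in the Ccnd2 difference was not tested.

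Ccne1 (ENSMUSG00000002068, chromosome 7) encodes cyclin E1, the partner of CDK2 at the entry into DNA synthesis and a known E2F target. It was at 1.26, 1.00, 1.08, 0.685 and 0.779 CPM in controls and at 3.27, 7.07, 6.90, 8.48 and 8.71 CPM with puberulic acid. Replicate 1 had the lowest of the treated levels and was still above every control. The level rose from 0.961 ± 0.230 to 6.89 ± 2.18 CPM (SD, n = 5 per group), and the log2 fold change was 2.83 ± 0.29 (SE, edgeR adjusted p = 5.22e-06). Ccnd2 and Ccne1 were higher and called in every alternative fit.

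The exact two-sided permutation test on log2(CPM + 1), unadjusted over 10 members, gave its smallest possible p of 0.00794 for Cdkn1a, Cdkn1b, Cdkn2a, Cdkn2b, Ccnd2 and Ccne1, the members whose ranges were separate. The same exact permutation test gave p = 0.0238 for Ccnd1, 0.0476 for Cdkn1c, 0.0714 for Cdkn2d and 0.778 for Cdkn2c. Ccnd1 was past 0.05 in this unadjusted test and not in edgeR's adjusted one.

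**Figure D3:**
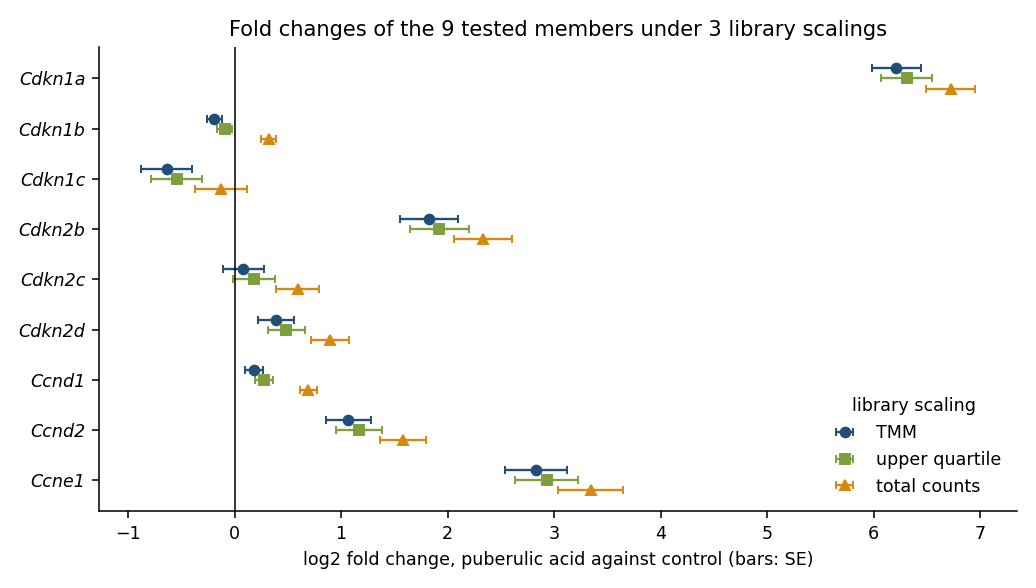
Log2 fold change of the 9 tested members, puberulic acid against control, with its SE, under TMM, upper-quartile and total-count scaling of the same 10 libraries. Cdkn1b lies below 0 with TMM (-0.19) and above 0 with total counts (0.32), while Cdkn1a, Cdkn2b, Ccnd2 and Ccne1 lie well above 0 under all 3.

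Puberulic acid replicate 1 had the lowest level of the 5 treated mice for 7 of the 10 members. Replicates 2, 4 and 5 were lowest for 1 each. The same mouse had the lowest Mki67, a proliferation marker, at 27.4 CPM against 61.3 to 77.7 CPM in the other 4 treated mice and 2.35 to 7.53 CPM in controls. Its summed injured tubule level was 1592 CPM, against 1914 to 2832 CPM in the other 4. Its summed proximal tubule level was 1482 CPM, against 646 to 788 CPM.

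Levels of different genes were compared per kilobase of exon. In controls the order was Ccnd1 (50.8 CPM per kb), Cdkn1c (16.2), Cdkn1b (7.61), Cdkn2c (6.12), Cdkn2d (5.35), Ccnd2 (2.10), Cdkn1a (1.63), Cdkn2b (0.965), Ccne1 (0.480) and Cdkn2a (0.0206). Neighbours whose control ranges overlapped were Cdkn1b with Cdkn2c, Cdkn2c with Cdkn2d, Ccnd2 with Cdkn1a, and Cdkn1a with Cdkn2b. With puberulic acid Cdkn1a stood first at 121.3 CPM per kb, above Ccnd1 at 57.7, and their ranges did not overlap. Cdkn1c (10.4), Cdkn2d (7.00), Cdkn1b (6.67), Cdkn2c (6.48), Ccnd2 (4.41), Cdkn2b (3.44) and Ccne1 (3.44) followed, each overlapping the next, and Cdkn2a stayed last at 0.178. Ratios within a library, which no scaling affects, moved the same way. The log2 ratio of Cdkn1a to Ccnd1 counts went from -5.47 ± 0.34 to 0.60 ± 0.21 (SD, n = 5 per group; exact two-sided permutation p = 0.00794, unadjusted, 1 of 10 such ratios, chosen after the levels had been seen).

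Shares within a family also need no scaling between libraries. Cdkn1a made up 6.39% ± 1.35 of the Cip/Kip transcripts per length in controls and 87.4% ± 2.87 with puberulic acid (SD, n = 5 per group). Cdkn1b went from 30.8% to 4.91% and Cdkn1c from 62.8% to 7.66%. The Cip/Kip sum went from 25.4 ± 4.44 to 138.3 ± 20.3 CPM per kb (SD, n = 5 per group). The ratio of Cdkn1c to Cdkn1b counts changed by -0.48 on the log2 scale (exact two-sided permutation p = 0.175), within the spread of the mice.

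Among INK4 transcripts, Cdkn2b went from 7.88% ± 3.04 to 20.6% ± 5.91 (SD, n = 5 per group). Cdkn2c went from 48.9% to 37.5%, Cdkn2d from 43.0% to 40.9% and Cdkn2a from 0.171% to 0.998%. The log2 ratio of Cdkn2b to Cdkn2c counts rose by 1.78 (exact two-sided permutation p = 0.00794), and that of Cdkn2d to Cdkn2c differed by 0.31 (exact two-sided permutation p = 0.111). The INK4 sum was 12.5 ± 1.17 CPM per kb in controls and 17.1 ± 3.35 with puberulic acid (SD, n = 5 per group).

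D cyclins changed in makeup more than in sum. Ccnd1 went from 50.6% ± 2.27 to 64.5% ± 2.80, Ccnd2 from 2.11% ± 0.40 to 4.85% ± 1.21, and Ccnd3, the D cyclin that is no member here, from 47.3% ± 2.65 to 30.7% ± 1.93 (SD, n = 5 per group). The Ccnd3 to Ccnd1 log2 count ratio fell by 0.98 (exact two-sided permutation p = 0.00794), and the Ccnd2 to Ccnd1 ratio rose by 0.83 (exact two-sided permutation p = 0.0159). Their summed level was 100.8 ± 10.2 CPM per kb in controls and 89.6 ± 7.69 with puberulic acid (SD, n = 5 per group), an order that turned with total counts, where it was 84.5 and 107. The E cyclins rose together. Ccne1 held 60.3% ± 7.22 of them in controls and 58.1% ± 8.07 with puberulic acid (SD, n = 5 per group), and the Ccne1 to Ccne2 log2 count ratio differed by -0.14 (exact two-sided permutation p = 0.675).

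**Figure D4:**
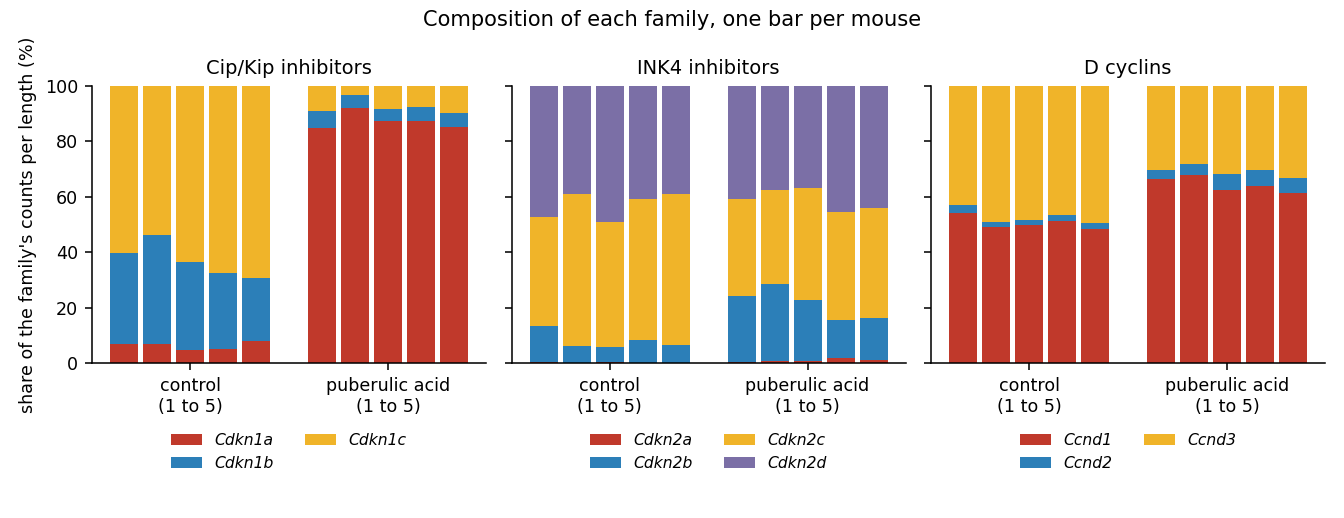
Share of each family's counts per exon length held by each gene, with 1 bar per mouse in order of replicate and bars summing to 100%. Cdkn1a fills 84.9% to 92.1% of the Cip/Kip bar in every treated mouse and at most 8.11% in controls, and Ccnd3 shrinks among the D cyclins.

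The other genes of the pathway were counted by the same calls over lists of selected genes, which do not hold whole families. Each count with TMM scaling stands beside the 65.3% called over all genes, 34.2% higher and 31.1% lower. With total counts more of all genes were called higher and fewer lower, as given above. List counts with that scaling therefore do not stand beside these shares. Of 10 CDKs and partners tested, 3 rose and none fell: Cks1b, a small CDK-binding protein needed to degrade p27 (log2 fold change 2.72), Cdk2 (0.87) and Cdk4 (0.40, edgeR adjusted p = 0.0128). Cdk6 had a log2 fold change of 0.28 (adjusted p = 0.317). The median of the list was 0.19, against 0.05 for all genes tested, and with total counts all 10 were called higher.

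Of 10 other cyclins tested out of 11 chosen, 6 rose and 2 fell, with a median of 1.59. The cyclin genes Ccnb2, Ccnb1 and Ccna2 rose by 4.28, 4.04 and 3.96 on the log2 scale, and Ccne2 by 2.87. Ccnd3 fell by 0.80 and Ccni, an atypical cyclin, by 0.76. With total counts Ccnd3 was at -0.29 and no longer called (adjusted p = 0.0514).

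Of 13 pocket proteins and E2F factors, 6 rose and 2 fell, with a median of 0.56. The repressors E2f8 and E2f7 rose by 3.75 and 3.42, and the activator E2f1 by 2.02. Rbl2, the pocket protein of resting cells, fell by 0.95, and E2f5 fell by 0.47 but was at 0.03 with total counts. Rb1 and Rbl1 were not called, with log2 fold changes of -0.12 and 0.57, and Rb1 was at 0.38 with total counts. The count was 10 higher and 1 lower with total counts.

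Of 12 genes tested out of 13 chosen that degrade inhibitors and G1 cyclins, 4 rose and 4 fell, with a median of -0.08. The numbers called in this list and among the pocket proteins and E2F factors are near the share over all genes, and are no result about either list. Dtl, which directs p21 and Cdt1 to degradation, rose by 4.41, and Skp2, which directs p27, by 0.91. Cul4a, a scaffold protein with which Dtl works, fell by 0.74 and Fbxo31, which targets cyclin D1, by 0.72. With total counts Cul4a was at -0.23 (edgeR adjusted p = 0.0130), and Fbxo31 was at -0.22 and no longer called (adjusted p = 0.0922). In the list 8 then rose and 1 fell.

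Of 25 upstream regulators, 17 rose and 3 fell, with a median of 0.82. Trp53, which encodes p53, rose by 0.98, its target and inhibitor Mdm2 by 1.52, and Myc by 3.03. Mdm2 was at 36.0 to 37.5 CPM in controls and at 89.9 to 115 CPM with puberulic acid. The AP-1 gene Fos rose by 4.16. Fosl1, another AP-1 gene, had 4 counts over all controls and 8143 with puberulic acid, a ratio of 1313 after scaling (95% exact interval 513 to 4820, counting error only). Against a floor of 3 counts per control library its fold was 350.1. Foxo1, an activator of Cdkn1b, fell by 0.61 and Cbx7, a repressor of the Cdkn2a locus, by 0.58. With total counts 22 rose and none fell.

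All 15 genes listed for DNA synthesis and mitosis rose, with a median of 3.03, led by the mitotic kinase Plk1 (4.45) and by Cdk1 (4.27), beside Mki67 (4.01). All 15 were also called higher with total counts and in each fit that left out 1 mouse. Of 15 genes used as markers of senescence or arrest, 13 rose and 2 fell, with a median of 3.40. The 13 include Lmnb1 (log2 fold change 2.57), named after its value was seen, whose loss and not its rise is the known mark of senescence. Il6 had no control counts and a mean of 2.56 ± 1.53 CPM with puberulic acid (SD, n = 5). Against a floor of 3 counts per control library it was at least 14.2-fold higher. Glb1, the lysosomal beta-galactosidase, fell by 1.35, and Igfbp3 fell by 0.88. With total counts Igfbp3 was at -0.37 and not called (adjusted p = 0.179), and the list had 13 higher and 1 lower. With Il6 at its bound the median was also 3.40.

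**Figure D5:**
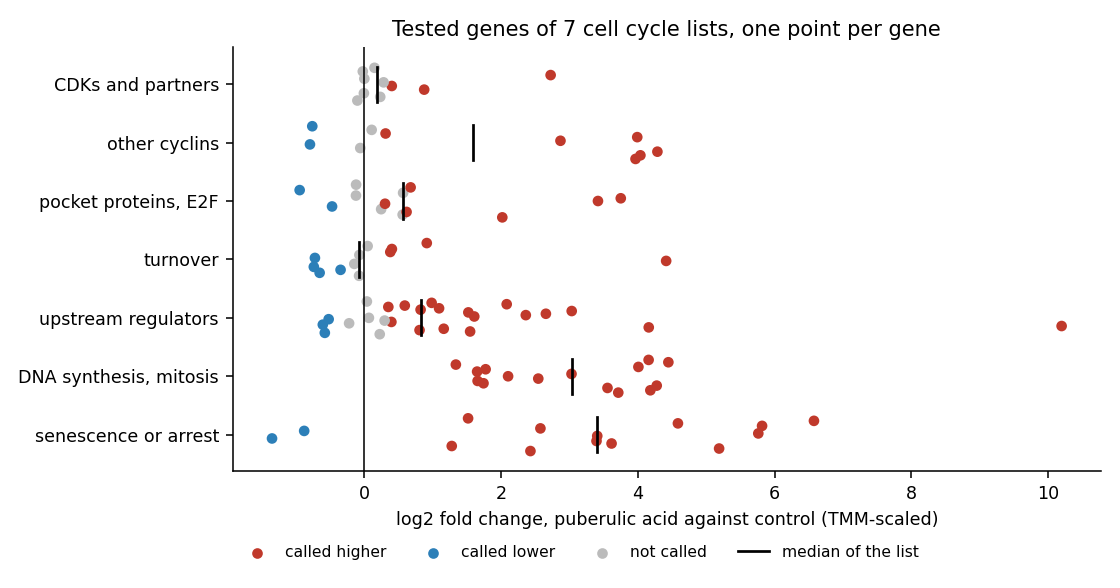
Log2 fold change of each tested gene in 7 lists of cell cycle genes, 1 point per gene, with the median of each list as a bar. Il6, which had no control counts, counts in its median but is not drawn, and Fosl1, the point farthest right, rests on 4 control counts. Points of the DNA synthesis and mitosis list all lie above 0, while the turnover list lies on both sides of it.

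Markers of several cell types moved in the same libraries. Counts of called markers, here and elsewhere in the text, stand beside the 65.3% called over all genes, 34.2% higher and 31.1% lower. These shares are for TMM scaling. Marker shares near or below them, as for the loop of Henle, intercalated cells, liver and urothelium, are no result about those cell types. All 8 proximal tubule markers fell, from a summed 7651 to 10935 CPM to 646 to 1482 CPM, and all 5 injured tubule markers rose. All 4 principal cell markers fell, as did all 3 of the distal convoluted tubule, all 3 of erythroid cells, 2 of 4 of intercalated cells, 1 of 3 of the loop of Henle and 2 of 3 of liver. With total counts 3 principal cell and 2 distal convoluted tubule markers were still called lower, 2 loop of Henle markers and 1 intercalated cell marker were called higher, and the liver list had 1 higher and 1 lower. The erythroid sum was 606 to 2040.5 CPM in controls and 17.6 to 180.1 CPM with puberulic acid. Of 5 urothelium markers tested, 1 rose. Of 7 macrophage and monocyte markers, 5 rose. Of 4 neutrophil markers, 2 were tested and 1 of them, Cxcr2, rose (log2 fold change 1.87, edgeR adjusted p = 9.62e-05). Their summed level was 0.527 to 1.31 CPM in controls and 1.93 to 3.18 CPM with puberulic acid, and the defining marker Ly6g was at 0 in every library. The T and B lymphocyte sum was 3.80 to 5.36 CPM in controls and 3.83 to 10.8 CPM with puberulic acid. Their part in the member differences was not tested.

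Genes with the pattern most like a member's were found over all 10 mice by the root mean square difference of log2(CPM + 1) values, each taken from the gene's control mean, among 15935 genes. Nearest to Cdkn1a were Fosl1 (0.218) and Dntt (0.338). Nearest to Cdkn1c were Myct1 (0.196), Slc9a3r2 and Emcn (0.221), the last a marker of endothelium. Of 7 endothelium markers 1 fell, and their summed level was 285 to 465 CPM in controls and 160.0 to 404 CPM with puberulic acid. With total counts none of these markers was called, and their median log2 fold change was 0.22, against -0.29 with TMM. Nearest to Ccnd1 was Srsf6, at 0.0558. The pseudocount shrinks changes of genes with few control counts, such as Fosl1. The level of Ccnd1 varied little over the mice, and so did that of its neighbour.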

How the data were processed

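The authors deposited estimated counts per gene for whole-kidney poly(A) libraries, with no normalization stated; the submitters' processing notes name build GRCm39 and the tools fastp 0.22.0, FastQC 0.12.1, MultiQC 1.28, Salmon 1.10.3 and DESeq2, without roles. The expected counts were rounded to whole numbers. Per the labels' protocols the library kit keeps strand, but whether counting used it is not given in the sources used here. Gene models on the opposite strand overlap Cdkn1a, Cdkn1c, Ccnd1 and Ccnd2 in GENCODE M21, so reads of both could not be separated if it did not. In the table, 10 per-sample columns were not used because their names do not show the supplement lot. Symbols were found for 51344 of 55822 identifiers, which hold 99.3% of the counts.

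The 5 control and 5 puberulic acid samples were fitted with filterByExpr, TMM factors and the quasi-likelihood test of edgeR 4.0.16 (limma 3.58.1, R 4.3.3), without a block; robust fitting was off. Same-numbered samples belong to differently treated groups, and their deviations did not go together (mean r = -0.036). Exact two-sided permutation tests used log2(CPM + 1) and every assignment of 5 mice against 5. The pipeline was tested on simulated data. Lengths are merged exons of GENCODE M21. Alternatives were RLE, upper-quartile and total-count scaling, no low-count filter, a minimum of 1 CPM in 5 samples, DESeq2 1.42.0, the replicate block, a pseudocount of 0.1 and leaving out each mouse. Python packages were numpy 2.4.6, pandas 2.3.3 and scipy 1.17.1.

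Members, pathway and marker lists and tests were chosen with earlier results of these data known. All 10 members are reported. From each pathway list the text names the 2 largest called changes in each direction and Cdk2, Cdk4, Cdk6, Ccnd3, Ccne2, Ccna2, Rb1, Rbl1, E2f1, Trp53, Mdm2, Skp2, Myc and Mki67. Some genes that these rules name are not reported here. Count ratios, shares, total-count counts of lists and the p53 motif definition were chosen after the data were seen.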

Additional observations from a re-analysis of the deposited data

Results flagged for a closer look

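Levels of the members and shares within the families were searched, in 44 groups of 5 values, for a mouse whose gap to its nearest neighbour was over 0.71 of the range of its group. There were 4 such values, where chance gives about 2.2 if values were independent, which shares of the same family are not. Cdkn1a in control replicate 5 was at 7.01 CPM, against 3.37 to 4.39 CPM in the other controls. In control replicate 1 the Ccnd2 share of the D cyclins was 2.80%, the highest of the controls. In control replicate 3 the Ccne1 share of the E cyclins was 73.1%, and the Ccne2 share was therefore 26.9%. The E cyclin shares rest on 11 to 22 Ccne1 counts per control library.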

How the results depend on the processing

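Cdkn1a, Cdkn2b, Ccnd2 and Ccne1 were higher and called in all 17 alternative fits, leave-one-out fits included. Members called numbered 6 as reported, 5 to 8 over the other settings and 4 to 6 with 1 mouse left out. Total-count scaling gave Cdkn1b 0.32 (reversed), Cdkn1c -0.13, Cdkn2c 0.59, Cdkn2d 0.90 and Ccnd1 0.69. Upper-quartile scaling gave Cdkn1b -0.094, Cdkn1c -0.55, Cdkn2d 0.49 and Ccnd1 0.28, and both scalings changed these calls. Cdkn1b was -0.19 (adjusted p = 0.112) with no filter, and Ccnd1 passed at 0.19 with a minimum of 1 CPM. Calls were 78.4% higher with total counts against 52.4% as reported, and 10104 to 11108 genes were called with 1 mouse left out.

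With 1 mouse left out, log2 fold changes were -0.25 to -0.17 for Cdkn1b (past the threshold in 7 of 10 fits), -0.77 to -0.49 for Cdkn1c (6 of 10), -0.034 to 0.18 for Cdkn2c (reversed in 3), 0.26 to 0.47 for Cdkn2d and 0.10 to 0.21 for Ccnd1 (1 of 10 each). In the exact permutation tests the same ranges were -0.77 to -0.43 for Cdkn1c (2 of 10), -0.048 to 0.20 for Cdkn2c and 0.25 to 0.44 for Cdkn2d. Total counts there gave Cdkn1b 0.31, Cdkn1c -0.15 and Cdkn2d 0.79.

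The replicate block left Cdkn1b at -0.19 (edgeR adjusted p = 0.0793) and 10325 genes called. In the paired sign-flip test, whose smallest p is 0.0625, no member could pass: the differences were 5.94 for Cdkn1a, -0.18 for Cdkn1b, -0.64 for Cdkn1c, 0.23 for Cdkn2a, 1.29 for Cdkn2b, 0.18 for Ccnd1, 0.97 for Ccnd2 and 1.96 for Ccne1. Not divided by length, the Ccnd3 share was 36.3% in controls and 21.5% with puberulic acid. Causes of these changes were not tested. With 18409940 to 24705953 counts per library, Cdkn2a was at 0 to 11 counts, near the limit of detection.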
